A study of Homo sapiens with 6 samples.

Results

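The genes described here handle lipid in macrophages and were read in MV4;11 leukemia cells after inhibition of menin. They are the esterase CES1, the nuclear receptors PPARG and NR1H3 (LXR alpha), the sterol exporters ABCA1 and ABCG1, the fatty acid binding proteins FABP4 and FABP5, the lipase LPL, the lipid droplet protein PLIN2 and the acyl-CoA synthetase ACSL1. They were taken by symbol: every probe set that the platform annotation assigns to 1 of these 10 genes alone was used, 21 probe sets of the 49293 tested, for 10 of 18239 genes. One further probe set, annotated to FABP5 and its pseudogene FABP5P3 together, was kept apart. MV4;11 is an established human line with a rearranged MLL gene, grown in RPMI-1640 with serum. The cells received 4 µM MI-389, an inhibitor of the menin-MLL interaction, or DMSO alone, for 6 days. Both groups carried 0.25% DMSO and had fresh medium with compound or solvent on day 3. Each group held 3 arrays, called biological replicates in the labels. Nothing says whether these came from separate cultures, so the p-values reflect variation among these 6 samples only, part of which may be technical.

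Macrophages take up lipoproteins and fatty acids, store the surplus as esters in droplets and export cholesterol. LXR receptors sense oxysterols and PPAR gamma senses fatty acids. Each binds DNA together with RXR. LXR with RXR drives ABCA1 and ABCG1, and PPAR gamma with RXR drives FABP4 and the scavenger receptor CD36. MV4;11 derives from a leukemia of monocytic type, and the comparison asks what changes in it when menin is inhibited.

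The 3 genes that fell were ABCA1, PLIN2 and ACSL1. Upstream sequence of ABCA1 and ACSL1 is shown because each holds a stretch close to a nuclear receptor element. The sequences are from RefSeq (GRCh38.p14), 5′ to 3′ on the gene's strand, and are the 250 bases before an annotated transcript start. Elements were searched on both strands as direct repeats of AGGTCA, spaced by 4 bases (DR4, the classical LXR and RXR site) or by 1 base (DR1, the classical PPAR and RXR site), with up to 2 mismatches in the 12 fixed letters. Capitals mark the match. The ABCA1 window is chr9:104928156-104928405, minus strand, and the ACSL1 window is chr4:184805554-184805803, minus strand, before 1 of its 5 listed starts.
ABCA1: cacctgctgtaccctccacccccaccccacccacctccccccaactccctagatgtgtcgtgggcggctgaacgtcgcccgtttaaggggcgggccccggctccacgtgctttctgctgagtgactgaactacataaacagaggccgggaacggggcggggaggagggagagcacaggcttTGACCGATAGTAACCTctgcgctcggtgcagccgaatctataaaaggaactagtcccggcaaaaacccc
ACSL1: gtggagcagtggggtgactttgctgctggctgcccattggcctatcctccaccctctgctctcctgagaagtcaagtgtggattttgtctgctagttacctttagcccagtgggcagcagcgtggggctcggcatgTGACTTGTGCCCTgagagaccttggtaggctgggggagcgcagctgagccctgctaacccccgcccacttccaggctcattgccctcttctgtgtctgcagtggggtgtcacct

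The ABCA1 match is a DR4 on the opposite strand with 2 mismatches, 69 to 54 bases before the start. The ACSL1 match is a DR1 on the opposite strand with 2 mismatches, 114 to 102 bases before that start. A DR4 match was present in 2.03% and a DR1 match in 2.57% of the 35116 promoter windows of the same length. Windows of 5 of the 10 genes were read (PPARG, NR1H3, ABCA1, PLIN2 and ACSL1), 17 in all, and 15 of these had neither match. The same search read 18 windows of 12 genes from the list of 16 LXR targets described below, which includes ABCA1 and NR1H3. Of these 12 genes, 1 (ABCA1) had a DR4 match and 0 had a DR1 match. Genes on chromosome 8, among them FABP4, FABP5 and LPL, were left out of this reading. The shares over all windows were not limited in that way. No window was available for CES1 and ABCG1. A match describes letters in a window, and binding was not measured in these data.

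Of the 10 genes, 4 rose (CES1, ABCG1, FABP4 and FABP5), 3 fell (ABCA1, PLIN2 and ACSL1) and 3 (PPARG, NR1H3 and LPL) did not pass the test, limma with Benjamini-Hochberg adjusted p under 0.05 over all genes. Over all genes 34.1% passed, 18.4% higher and 15.7% lower. With the arrays centred on hybridisation spike-ins, described below, 1 member (CES1) was higher and 5 were lower. The change reached 2-fold in 2 members, CES1 and ACSL1, as it did in 3.87% of all genes. Members were listed with earlier results known, so these shares describe the list. The median log2 difference, MI-389 minus DMSO, was 0.04 for the members and 0.02 for all genes. In 6 of the 10 genes the arrays of one group all lay above those of the other, against 45.3% of all genes.

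Levels are deposited RMA values on the log2 scale, with 1 value per probe set and array. Each gene is represented by its probe set with the highest mean over the 6 arrays. As a guide to background, the highest array value among the nonspecific control probe sets was 5.49, the set of highest GC content left out, and 9571 of the 18239 genes had a mean under it. Levels of different probe sets are not on a common scale and are not ranked here. Arrays correlated at 0.997 to 0.998 within and 0.979 to 0.981 between groups, across probe sets, which are not independent replicates. MI-389 replicate 3 stood apart on the second principal component, which held 4.91% of the variance. The 9 hybridisation spike-in probe sets were 0.25 higher with MI-389. Centring arrays on them lowers every gene's difference by that amount and moves the median of all genes to -0.23, with 1397 genes higher and 11056 lower in place of 3352 and 2862. Its effect is given below where it ends the call of a member or of a gene named from a gene list. Calls of the cell type markers under it are not given.

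**Figure D1:**
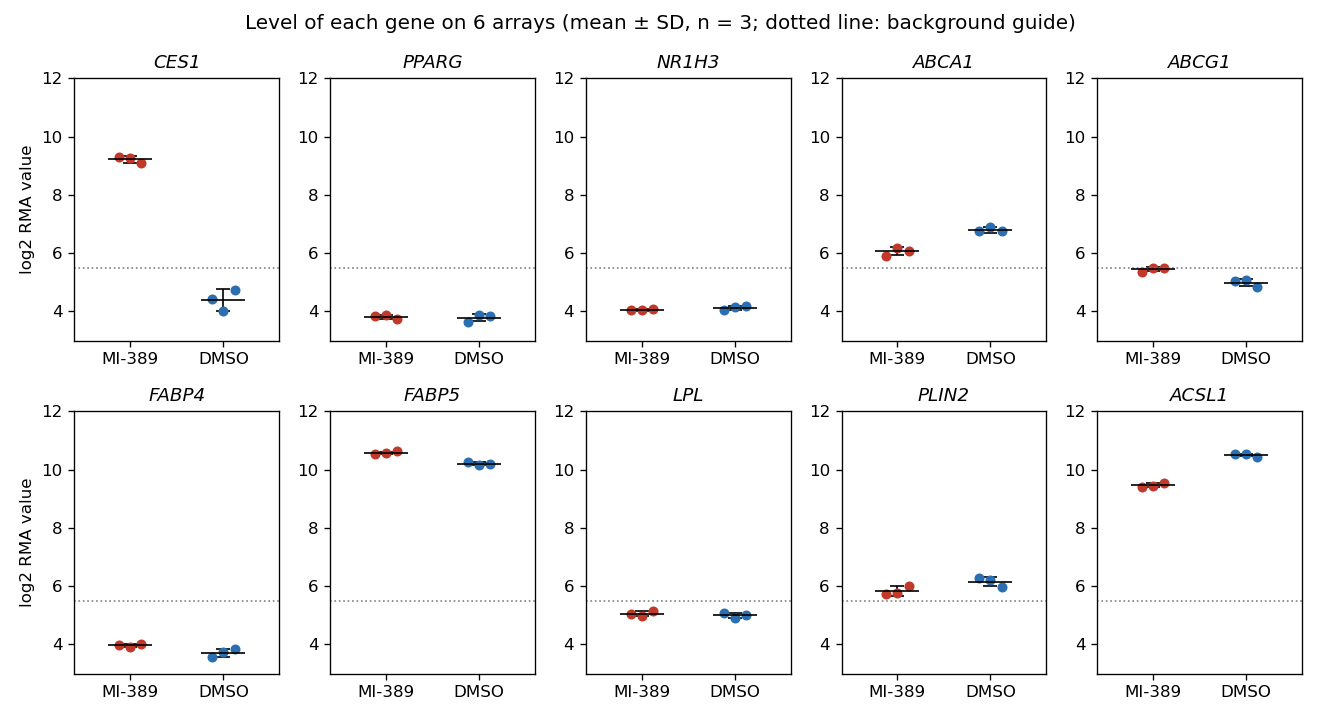
Log2 RMA value (vertical axis) of the representing probe set of each of the 10 genes on the 3 MI-389 arrays (red) and the 3 DMSO arrays (blue), with mean and SD as black bars and the background guide of 5.49 as a dotted line. CES1 lies far above the guide on the MI-389 arrays alone, ABCA1 and ACSL1 are lower with MI-389, and PPARG, NR1H3, FABP4 and LPL stay under the guide in both groups.

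CES1, carboxylesterase 1, hydrolyses esters of drugs and lipids in liver, monocytes and macrophages. Its probe set read 9.31, 9.28 and 9.09 on the MI-389 arrays, against 4.44, 4.01 and 4.74 on the DMSO arrays. All 3 DMSO values lay under the guide and all 3 MI-389 values far above it. The log2 difference was 4.83 (SE 0.15, limma adjusted p = 7.7e-09), the 7th largest of 3352 rises. Because the DMSO group was under the guide, the rise is stated as at least 13.3-fold when set against 5.49. The DMSO arrays spread more (SD 0.37) than the MI-389 arrays (SD 0.12, n = 3 each). CES1 was measured by 1 probe set, whose _s_at suffix marks sequence that several transcripts may share. CES1 has a near-identical pseudogene copy, and signal from that copy cannot be told apart here.

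The other carboxylesterases gave no call. CES2, an intestinal and hepatic esterase, averaged 6.37 with MI-389 and 6.47 with DMSO, a difference of -0.10 (95% interval -0.25 to 0.05). CES4A and CES5A had both group means under the guide. CES3 was not analysed here. Markers of hepatocytes, where CES1 is most abundant, were set beside it. Of 8 such genes 2 were higher (SERPINA1 and HP) and 0 lower, where 18.4% of all genes were higher. HP rose by 0.31 (SE 0.09), and its value under the spike-in centring is not given. ALB, APOB, TTR, FGB, HP and TF lay under the guide in both groups. APOA1, also an apolipoprotein of hepatocytes, was above it in both, at 5.88 with MI-389 and 5.83 with DMSO, and had no call. The summed level of the 8, in which bright probe sets weigh most, as log2 of the sum of linear values, was 8.12 to 8.22 with MI-389 and 7.33 to 7.40 with DMSO. This difference came with SERPINA1, a protease inhibitor that monocytes also make, which averaged 7.11 with MI-389 and 4.49 with DMSO.

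Of the receptors, PPARG was under the guide on every array. Its representing probe set read 3.84, 3.86 and 3.72 with MI-389, against 3.64, 3.88 and 3.83 with DMSO. The groups overlapped, and the log2 difference was 0.03 (95% interval -0.14 to 0.19, limma adjusted p = 0.826). The other PPARG probe set differed by 0.09 (interval -0.04 to 0.22) and also overlapped. NR1H3, the LXR form enriched in macrophages, read 4.04, 4.04 and 4.09 with MI-389, against 4.05, 4.13 and 4.18 with DMSO. These 6 values overlapped as well, with a difference of -0.07 (interval -0.20 to 0.06, adjusted p = 0.435). Array values under the guide do not show whether a transcript is absent. Under the spike-in centring PPARG (-0.22, adjusted p = 0.0199) and NR1H3 (-0.32, adjusted p = 0.0020) passed as lower, as 11056 genes did.

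The partner receptors and their coregulators were described from a list of 16 genes, of which 12 were measured. Of these 2 rose, 2 fell and 8 did not pass, with a median of 0.03. The share called was 33.3%, against 34.1% of all genes. Without the members PPARG and NR1H3 it was 40% of 10 genes. NCOA1, a coactivator of nuclear receptors, averaged 7.58 ± 0.03 with MI-389 and 6.59 ± 0.14 with DMSO (SD, n = 3 each). Its rise of 0.99 (SE 0.07, limma adjusted p = 3.4e-06) was shared by 6 of 6 NCOA1 probe sets. RXRA, the common partner of PPAR and LXR, rose by 0.20 (SE 0.05), with 1 of 2 probe sets called, and stood at -0.06 with no call under the spike-in centring. PPARD, the broadly expressed PPAR, fell by 0.51 (SE 0.09) with both means under the guide and 1 of 3 probe sets called. PPARA, the PPAR of fatty acid oxidation, fell by 0.23 (SE 0.05) in its representing probe set. Of the 8 PPARA probe sets 2 were lower, 1 was higher and 5 did not pass, so the direction depends on the probe set. With a gene's probe sets averaged, or with probe sets without a suffix preferred, 1 gene of this list was lower in place of 2. Without DMSO replicate 2 or DMSO replicate 3 it had 1 gene higher in place of 2. The spike-in centring gave 1 higher and 6 lower.

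The exporters moved in opposite directions. ABCA1, which loads cholesterol onto lipid-poor apolipoprotein A-I, read 5.91, 6.18 and 6.08 with MI-389, against 6.75, 6.90 and 6.75 with DMSO. Every MI-389 array lay below every DMSO array, and all 6 were above the guide. The difference was -0.74 (SE 0.08, limma adjusted p = 4.4e-05), a level 1.67-fold lower with MI-389. This call came from 1 of 3 probe sets. The other ABCA1 probe sets lay between 3.44 and 3.65 on all arrays and differed by -0.03 and 0.0015. Averaged over the 3 probe sets, ABCA1 changed by -0.26 (adjusted p = 9.1e-04).

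ABCG1, which passes cholesterol to mature high-density lipoprotein, read 5.36, 5.48 and 5.49 with MI-389, against 5.05, 5.08 and 4.84 with DMSO. All MI-389 arrays were higher, yet both means were under the guide, so no fold is given. The log2 difference was 0.45 (SE 0.07, limma adjusted p = 8.5e-04). Of its 5 probe sets 3 were called higher and 0 lower, with differences from 0.17 to 0.45, and the groups of 4 did not overlap, as for 40.4% of all probe sets. The mean of the 5 gave 0.29 (adjusted p = 3.8e-04). With the spike-in centring the difference was 0.20 and not called (adjusted p = 0.0564).

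**Figure D2:**
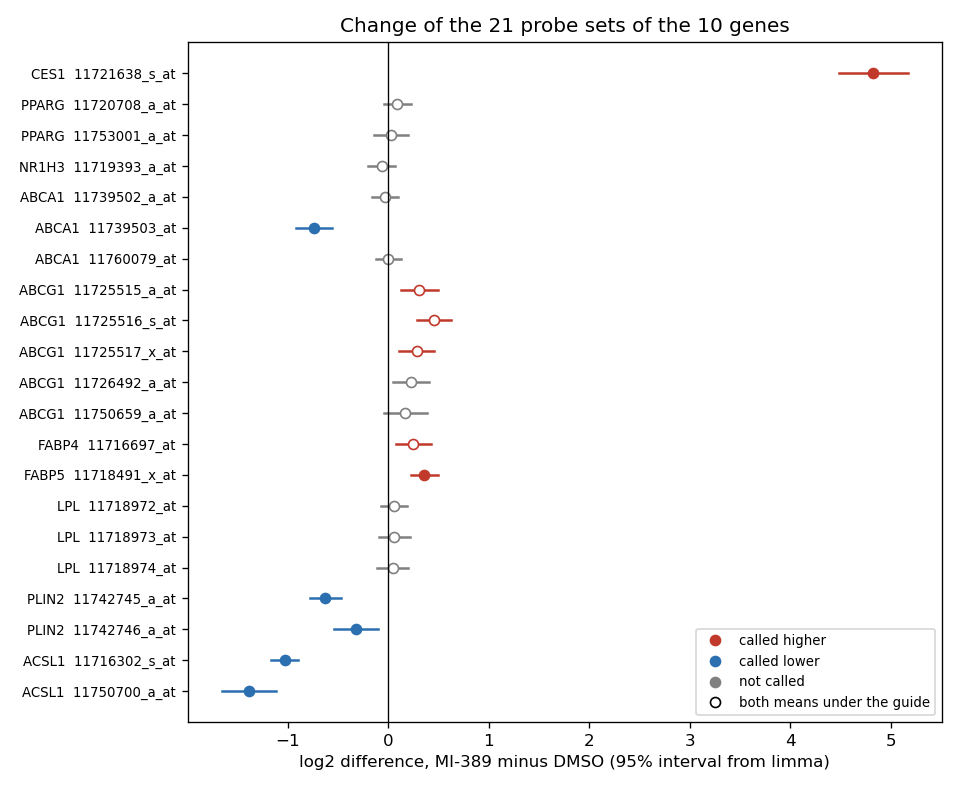
Log2 difference, MI-389 minus DMSO (horizontal axis), with its 95% interval from limma, for each of the 21 probe sets of the 10 genes. Colour gives the call and open circles have both group means under the guide; 6 probe sets were higher and 5 lower, and both ACSL1 and both PLIN2 probe sets lie to the left of 0.

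At the level of probe sets, 6 of 21 members were higher and 5 lower, where 28.0% of all probe sets passed, 14.0% in either direction. Without MI-389 replicate 3 the count of higher member probe sets was 3.

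The fatty acid binding proteins both rose by small amounts in the values as deposited, and neither was called under the spike-in centring. FABP5, which carries fatty acids in macrophages and skin, read 10.5, 10.6 and 10.6 with MI-389, against 10.3, 10.2 and 10.2 with DMSO. The lowest MI-389 value, 10.53, was above the highest DMSO value, 10.27. The rise was 1.28-fold, a log2 difference of 0.36 (SE 0.06, limma adjusted p = 7.0e-04). The probe set shared with FABP5P3 differed by 0.43 (SE 0.06), and a copy's signal cannot be told apart from that of FABP5. With the spike-in centring FABP5 changed by 0.11 and was not called (adjusted p = 0.2496).

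FABP4, a classical PPAR gamma target of adipocytes and macrophages, read 3.97, 3.90 and 4.03 with MI-389, against 3.57, 3.74 and 3.84 with DMSO. The groups did not overlap, but every value was under the guide. The log2 difference of 0.25 (SE 0.07) passed narrowly (limma adjusted p = 0.0255). It lost the call when MI-389 replicate 1, MI-389 replicate 3, DMSO replicate 1 or DMSO replicate 2 was left out, with adjusted p up to 0.0947. It was -0.0016 with the spike-in centring. The 5 other family members measured, FABP1, FABP2, FABP3, FABP6 and FABP7, had no call.

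LPL, which frees fatty acids from circulating triglyceride, read 5.06, 4.97 and 5.14 with MI-389, against 5.07, 4.90 and 5.02 with DMSO. The groups overlapped under the guide, and the difference was 0.06 (95% interval -0.09 to 0.21, limma adjusted p = 0.565). None of its 3 probe sets was called, with differences of 0.04 to 0.06.

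PLIN2, the main droplet coat protein of macrophages, read 5.72, 5.76 and 6.02 with MI-389, against 6.29, 6.20 and 5.98 with DMSO. The highest MI-389 value lay above the lowest DMSO value, so the groups overlapped. The difference of -0.32 (SE 0.10) passed narrowly (limma adjusted p = 0.0299). It was lost without MI-389 replicate 1, MI-389 replicate 2, DMSO replicate 1 or DMSO replicate 2, with adjusted p up to 0.116. The other PLIN2 probe set read 4.94, 5.17 and 5.02 with MI-389, against 5.72, 5.65 and 5.63 with DMSO. There the groups did not overlap, and the difference was -0.63 (SE 0.07, adjusted p = 7.5e-05 over all probe sets). With the spike-in centring the representing probe set gave -0.57. Among the other perilipins, PLIN3, which coats nascent droplets, fell by 0.33 (SE 0.06) and PLIN1, PLIN4 and PLIN5 had no call.

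ACSL1, which activates long-chain fatty acids as acyl-CoA, read 9.42, 9.44 and 9.54 with MI-389, against 10.5, 10.5 and 10.4 with DMSO. All 6 values were well above the guide and the groups were far apart for their spread, with SDs of 0.07 and 0.05. ACSL1 was 2.04-fold lower with MI-389, a log2 difference of -1.03 (SE 0.06, limma adjusted p = 4.7e-07), in place 307 of 2862 falls. Its other probe set read 5.49, 5.59 and 5.32 with MI-389, against 7.04, 6.96 and 6.56 with DMSO. That probe set gave -1.39 (SE 0.12), at least 2.58-fold lower when the MI-389 group is set at the guide. Of the related synthetases, ACSL5 rose by 0.28 (SE 0.06) with 1 of 3 probe sets called, and ACSL4 and ACSL6 had no call. ACSL5 stood at 0.03 and was not called under the spike-in centring.

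The LXR targets around ABCA1 and ABCG1 were taken from a list of 16 genes, with 15 measured. Of these 3 rose, 5 fell and 7 did not pass, with a median of -0.07 against 0.02 for all genes. The share called was 53.3%, against 34.1% of all genes. Without the members, 2 of 12 genes were higher and 4 lower, or 50% called. SREBF1, the transcription factor of fatty acid synthesis, averaged 6.97 ± 0.11 with MI-389 and 8.34 ± 0.10 with DMSO (SD, n = 3 each). It was 2.59-fold lower (SE 0.07 on the log2 scale, limma adjusted p = 3.5e-07), with 2 of 3 probe sets lower. SCD, the fatty acid desaturase, fell by 0.51 (SE 0.05) with 1 of 4 probe sets called. LPCAT3, which puts polyunsaturated chains on phospholipids, fell by 0.46 (SE 0.06) with 2 of 5 called. SMPDL3A, a phosphodiesterase, rose by 0.66 (SE 0.10) and APOE, the apolipoprotein of macrophage cholesterol export, by 0.56 (SE 0.13). Both of these had both means under the guide. With the spike-in centring 2 genes of the list were higher and 11 lower.

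**Figure D3:**
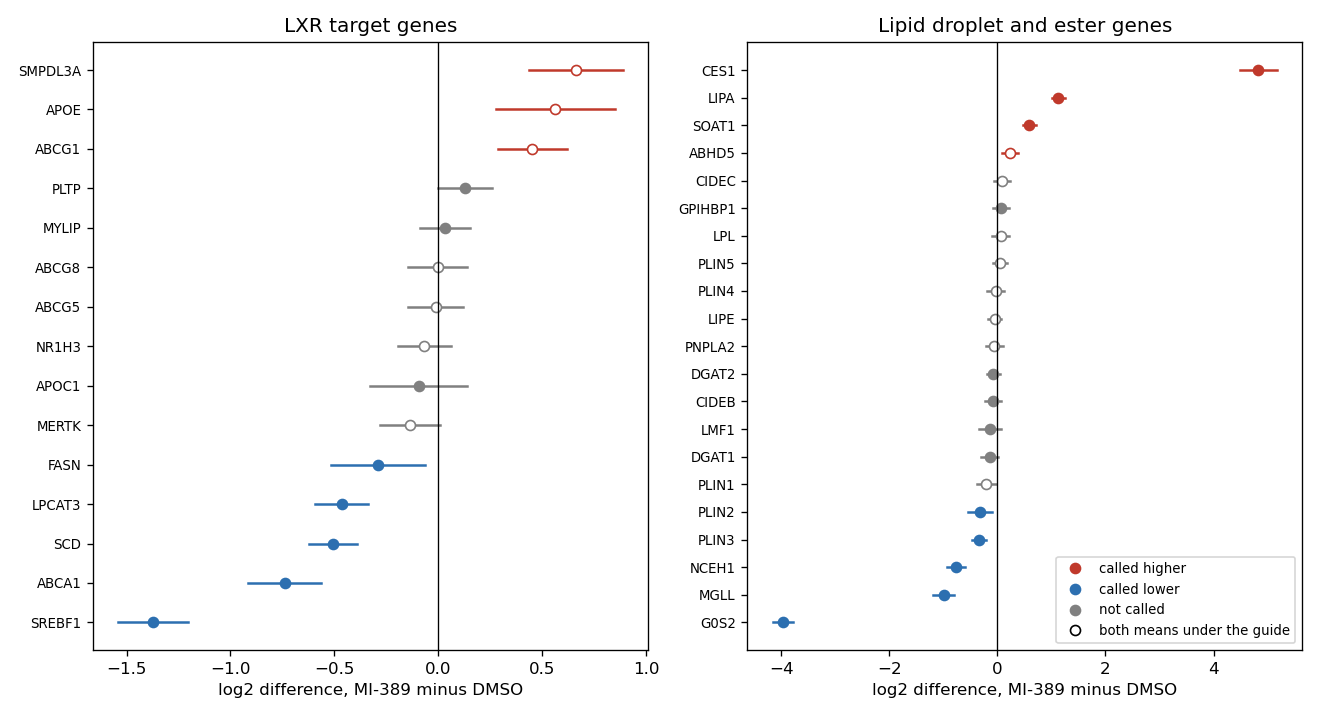
Log2 difference, MI-389 minus DMSO (horizontal axis), with its 95% interval, for the 15 measured LXR target genes (left) and 21 lipid droplet and ester genes (right). Colour gives the call and open circles have both means under the guide; SREBF1 and ABCA1 are lowest on the left, and CES1 and G0S2 lie at opposite ends on the right.

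The PPAR target list held 12 genes, 10 of them measured, of which 5 rose and 2 fell, with a median of 0.18. The share called was 70%, against 34.1% of all genes. Without the members, 4 of 6 genes were higher and 0 lower, or 66.7% called. The 2 that fell were the members ACSL1 and PLIN2, and 1 (ACSL1) was left where PLIN2 lost its call, as given above. CD36, the fatty acid translocase and scavenger receptor, averaged 8.85 ± 0.05 with MI-389 and 4.65 ± 0.23 with DMSO, at least 10.3-fold higher when set against 5.49. All 3 CD36 probe sets were higher, with log2 differences of 3.83 to 4.25. CPT1A, which admits fatty acids to mitochondria, rose by 0.33 (SE 0.06) with 1 of 2 probe sets called. UCP2, a mitochondrial carrier, rose by 0.30 (SE 0.05) in its representing probe set, while 2 of its 4 probe sets were lower. The spike-in centring ended both calls, with CPT1A at 0.08 and UCP2 at 0.05. Without MI-389 replicate 1 or DMSO replicate 1 the list had 3 genes higher, and with the spike-in centring 1.

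Genes of the lipid droplet and of ester turnover numbered 21, all measured, with 4 higher, 5 lower and a median of -0.06. The share called was 42.9%, against 34.1% of all genes. Without the members, 3 of 18 genes were higher and 4 lower, or 38.9% called. LIPA, the lysosomal acid lipase that frees cholesterol from ingested lipoproteins, read 10.4, 10.3 and 10.4 with MI-389, against 9.25, 9.18 and 9.24 with DMSO. It was 2.18-fold higher (SE 0.05 on the log2 scale, limma adjusted p = 1.2e-07) in both of its probe sets. SOAT1, which esterifies cholesterol for storage, rose 1.51-fold, with 3 of 3 probe sets higher. ABHD5, the activator of droplet lipolysis, rose by 0.23 (SE 0.07) with both means under the guide, and 4 of its 6 probe sets were higher. It stood at -0.02 with no call under the spike-in centring.

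G0S2, an inhibitor of triglyceride lipase, read 3.38, 3.51 and 3.62 with MI-389, against 7.62, 7.39 and 7.40 with DMSO. It was at least 3.96-fold lower when the MI-389 group is set at 5.49 (limma log2 difference -3.97, SE 0.08, adjusted p = 6.5e-10). Of its 4 probe sets 2 were lower and 2 had no call. MGLL, monoacylglycerol lipase, was at least 1.87-fold lower, with 5 of 6 probe sets lower. NCEH1, a neutral cholesterol ester hydrolase of macrophages, was 1.71-fold lower, with 1 of 3 called. Under the spike-in centring 3 of these genes were higher and 14 lower.

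In the ABC families, ABCA7, a phospholipid transporter, rose by 0.66 (SE 0.08) with 1 of 2 probe sets called. ABCG2, a drug exporter, rose by 0.23 (SE 0.07) with both means under the guide and 1 of 2 probe sets called, and stood at -0.03 with no call under the spike-in centring. ABCA2 and ABCG4 had no call. Across all 28 genes of the members' families, 26 were measured, 7 higher and 4 lower. Without the members, 3 of 19 were higher and 1 lower, or 21.1% called, against 34.1% of all genes.

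Genes whose 6 array values most resembled those of a member were found by the root mean square difference, each gene first set against its own DMSO mean. For CES1 they were CACNA2D3 (0.17 on the log2 scale), CYBB (0.40) and ANXA1 (0.43). For ABCA1 they were PIBF1 (0.04), POLR1E (0.04) and CDK18 (0.04). For PPARG they were CDRT15P1, ZP2 and ZNF649, at 0.01 to 0.02, none of them called.

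Of 10 measured monocyte and macrophage markers, 7 were higher with MI-389, 1 was lower and 2 (MSR1 and VCAN) had no call. Over all genes 18.4% were higher and 15.7% lower. FCGR1A, a receptor for immunoglobulin G, fell, at 8.49 with MI-389 and 9.76 with DMSO. The summed level of the 10 was 13.3 to 13.4 with MI-389 and 11.7 to 11.8 with DMSO. Lysozyme (LYZ), at 13.1 with MI-389 and 11.1 with DMSO, made up most of it. Without LYZ the sum of the other 9 overlapped between the groups, at 10.32 to 10.34 with MI-389 and 10.22 to 10.35 with DMSO. ITGAM and MARCO stood above the guide with MI-389 and under it with DMSO, while CD14 and CD163 were under it in both groups. CD163 rose by 0.23 (SE 0.07), less than the 0.25 that the spike-in centring takes off every difference. The part of these markers in the results above was not tested, and in bulk RNA a change in the number of cells of a type and in RNA per cell cannot be told apart. All 8 adipocyte markers, among them ADIPOQ, LEP and PLIN1, lay under the guide in both groups, with 0 called and sums of 7.51 to 7.60 with MI-389 and 7.55 to 7.62 with DMSO. Of the T cell, B cell, erythroid and fibroblast markers, PAX5 alone had means above the guide. For the label MV4;11, 4 of 7 measured markers of myeloid identity were above the guide in both groups. The leukocyte antigen PTPRC and the receptor FLT3 were among them, while MPO, ANPEP and the probe set representing SPI1 were under it in both. Of the 7, 3 were higher and 2 lower with MI-389. FLT3 was among the lower, at 9.59 with MI-389 and 11.0 with DMSO. The summed level of the 7 was 10.7 to 10.9 with MI-389 and 11.4 to 11.5 with DMSO.

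**Figure D4:**
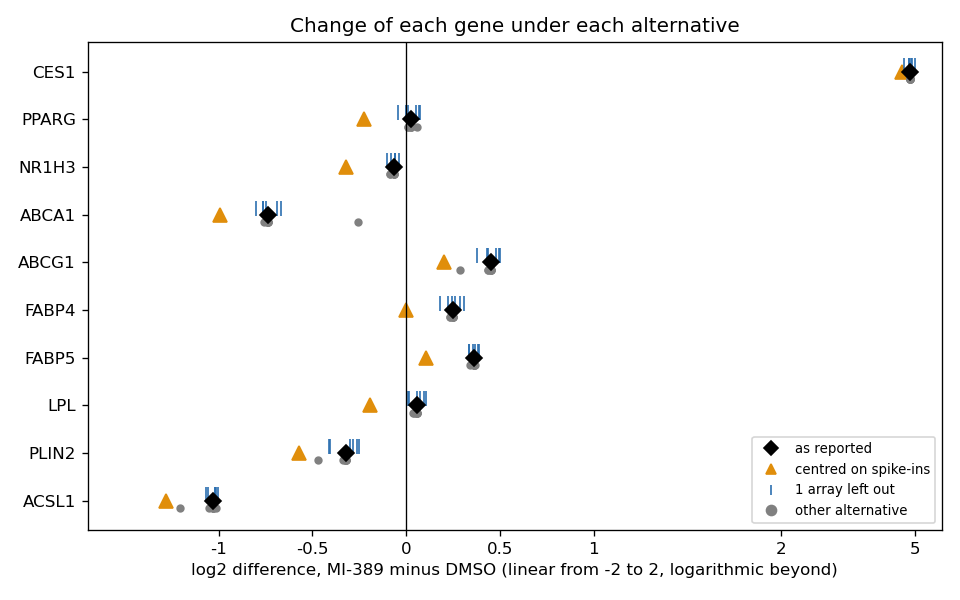
Log2 difference, MI-389 minus DMSO (horizontal axis, linear up to 2 and logarithmic beyond), of each of the 10 genes as reported (black diamonds), with 1 array left out (blue ticks), with arrays centred on the spike-ins (orange triangles) and under the other alternatives (grey). CES1 remains far to the right and ACSL1 below -1 under all of them, while FABP4 meets 0 under the spike-in centring.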

How the data were processed

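RNA was hybridised to Affymetrix arrays after 3′-IVT labelling, per the labels' protocols. The deposited values are log2 values per probe set. The submitters' processing notes name RMA and limma, with versions and settings not given in the sources used here. No detection calls were used, array numbers limit the precision, and RMA compresses dim values. Probe sets were named from the platform annotation, with symbols updated by Entrez ID through RefSeq (GRCh38.p14). Of 49293 probe sets, 45253 had 1 gene, 1327 several and 2713 none, and 93 controls were left out. MI-389 was set against DMSO with limma 3.58.1 in R 4.3.3 (lmFit, eBayes, two-sided, no covariates) over all probe sets and over all genes. The method was tested on simulated data. Members and lists were chosen with earlier results of these data known. Named genes are the members, up to 3 rises and 3 falls per list, and the 3 nearest in pattern to CES1, PPARG and ABCA1. The alternatives were other scalings, a dim filter, other probe set choices, another variance model, a replicate block and leaving out arrays.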

Additional observations from a re-analysis of the deposited data

How the results depend on the processing

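Under 14 alternatives CES1, ABCA1 and ACSL1 kept their direction and call. The log2 difference was at least 4.58 for CES1, -0.99 to -0.26 for ABCA1 and -1.28 to -1.01 for ACSL1. The spike-in centring moved most counts: member genes to 1 higher and 5 lower, member probe sets to 1 and 11, LXR targets to 11 lower, PPAR targets to 1 higher, receptors and coregulators to 1 and 6, and droplet and ester genes to 14 lower. It turned PPARG to -0.22, LPL to -0.19 and FABP4 to -0.0016. With the replicate number as a block, PLIN2 was not called (adjusted p = 0.0587) and 1 PPAR target was lower; no other member's call changed. Same-numbered arrays correlated at -0.20, 0.02 and -0.14 in their deviations from the group means, with no sign of an effect shared by replicate number. Arrays of unlike number correlated at -0.04 to 0.20. The highest were MI-389 replicate 1 with DMSO replicate 3 (0.20) and MI-389 replicate 3 with DMSO replicate 1 (0.15). These values cannot show whether same-numbered cultures were set up together. The receptor list had 1 gene lower with the mean of all probe sets and with suffix-free probe sets preferred. With 1 array left out, counts ranged from 3 to 5 higher and 1 to 2 lower for PPAR targets, 1 to 3 higher for receptors, and 3 to 7 higher for member probe sets, and the PPARG difference from -0.045 to 0.075. The dim filter, at the 40th percentile, gave no value for PPARG, NR1H3 and FABP4. The causes of these changes, and of the offset of the spike-ins, were not tested.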
